A study of Homo sapiens with 6 samples.

Results

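Fibrinogen, coagulation and plasminogen activation genes were examined in A549 cells, an established human cell line from a lung adenocarcinoma, with and without a deletion of the microRNA gene MIR21. The 10 genes were taken by name from the 58174 genes of the deposited table: the fibrinogen chains FGA, FGB and FGG, the fibrinogen-like gene FGL1, coagulation factor V (F5), the inhibitors TFPI and TFPI2, and the plasminogen activator genes PLAU, PLAUR and PLAT. The Ctrl group held 3 polyA RNA-seq libraries of parental A549 cells. The MIR21-KO group held 3 libraries of A549 cells in which the MIR21 locus had been removed with the nuclease Cas9 and a pair of guide RNAs, delivered on plasmids. The labels name no other allele or agent in either group, and both were grown in serum-containing medium and harvested 48 h after seeding. MIR21-KO cells descended from single sorted cells, the number of clones behind the 3 libraries is not stated, and Ctrl cells were an unsorted population, so differences between clones and the deletion cannot be told apart. The study calls the 3 libraries of a group independent samples without saying what was separate between them, and the p-values measure the spread between these libraries.

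Fibrinogen is a secreted protein of alpha, beta and gamma chains, made mainly by hepatocytes as part of the acute-phase response, and thrombin turns it into the fibrin of a clot. TFPI and TFPI2 are Kunitz-type inhibitors, TFPI of the tissue factor and factor VIIa complex that starts coagulation and TFPI2 mainly of plasmin and related proteases. The serine proteases uPA (PLAU) and tPA (PLAT) turn plasminogen into plasmin, which dissolves fibrin and cleaves extracellular matrix, and uPAR (PLAUR) holds uPA at the cell surface of many carcinoma cells.

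MIR21 itself cannot be checked in these libraries, because it was listed at 0 FPKM in all 6 of them. FPKM is the number of fragments per kilobase of gene, scaled to the size of the library, so it can be compared between genes. VMP1, the protein-coding gene that spans MIR21 on chromosome 17, stood at 70.7, 76.8 and 77.8 FPKM in Ctrl and at 135, 144 and 149 FPKM in MIR21-KO. The libraries held 10631667 to 14345209 reads on genes. Of the marker genes of other cell types, endothelial and blood genes were near 0 (summed level 0.0490 to 0.154 FPKM and 0.492 to 2.60 FPKM over the 6 libraries), whereas the epithelial list summed to 1684 to 1807 FPKM in Ctrl and 1218 to 1745 FPKM in MIR21-KO, led by KRT7, KRT8 and KRT18. Of 6 tested epithelial markers only the cadherin CDH1 was called, which fell from 8.18 ± 0.584 to 2.86 ± 0.147 FPKM (mean ± SD, n = 3). KRT18 was called lower in 5 of 16 alternative fits, among them those without MIR21-KO replicate 1 (FDR 0.00560) or 3 (0.00511). KRT19 was called higher in 1 alternative fit, without MIR21-KO replicate 3 (0.00799). Of 3 tested fibroblast markers only THY1 was called, which rose from 2.28 to 7.15 FPKM, while COL1A1 and LUM were not called.

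The deletion removes the mature microRNA hsa-miR-21-5p, which recognises 3′ UTRs mainly through its seed. Its sequence is shown beside that of hsa-let-7a-5p, a microRNA whose genes were not targeted, because the search of the 10 genes turned on these seeds. The study reports that let-7 microRNAs were elevated in its MIR21-KO A549 cells, so let-7a-5p is not an unaffected control. Capitals mark the seed (bases 2 to 8), and both sequences are from RefSeq (GRCh38.p14), with the miR-21 strand at chr17:59841273-59841294 (+).
hsa-miR-21-5p: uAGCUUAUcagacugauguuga
hsa-let-7a-5p: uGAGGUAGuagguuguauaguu
None of the 10 genes held even a 6-base match to the miR-21-5p seed in the 3′ UTR of any annotated coding transcript (GENCODE 29), over UTRs of 147 bases in F5 to 2706 bases in TFPI. The same was true of let-7a-5p. Among 11646 tested genes with an annotated 3′ UTR, 27.9% held such a match for miR-21-5p and 27.5% for let-7a-5p. No match says only that these letters are absent from the annotated 3′ UTRs.

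In MIR21-KO cells TFPI2, TFPI, PLAT and PLAUR were higher than in Ctrl cells, FGL1 was lower, PLAU was higher by a smaller step that missed the threshold, and the few fibrinogen reads of Ctrl cells were absent. A test on log2(FPKM + 0.1) with limma, adjusted over the 16006 genes whose mean reached 0.5 FPKM, called genes at an FDR under 0.01. It called 16.0% of all genes tested, 7.66% as higher and 8.38% as lower in MIR21-KO. Of the 10 genes, 4 were called higher, 1 was called lower, PLAU was not called, and FGA, FGB, FGG and F5 fell under the filter on low values and were not tested. FGL1 passed that filter only through its Ctrl level. Fold changes are on the scale of log2(FPKM + 0.1) and so understate the change of genes with low values. In each of the 6 tested genes the 3 values of one group lay apart from the 3 of the other, as they did in 48.1% of all genes tested.

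**Figure D1:**
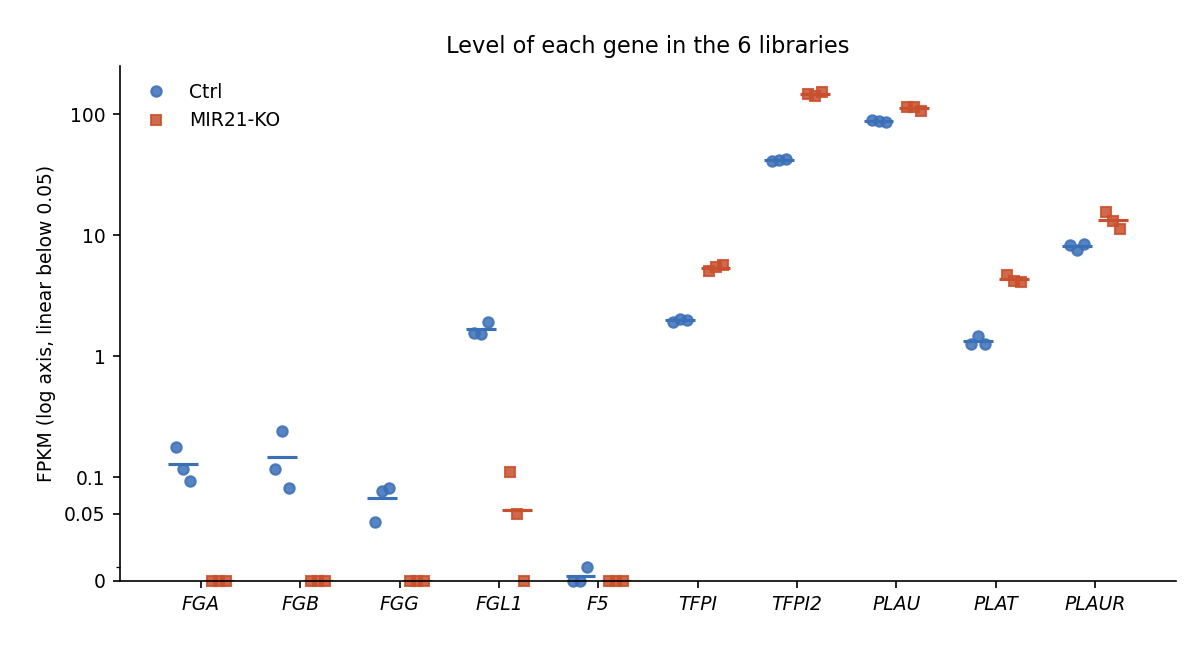
Level of the 10 genes in each library, in FPKM on a log axis that is linear below 0.05, with Ctrl as circles, MIR21-KO as squares and a bar at each group's mean (n = 3). FGA, FGB, FGG and FGL1 sit higher in Ctrl, TFPI, TFPI2, PLAU, PLAT and PLAUR sit higher in MIR21-KO, and F5 stays at 0 in all libraries but 1.

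The levels of the 10 genes spanned several orders of magnitude. In Ctrl, PLAU (87.4 FPKM) was followed by TFPI2 (41.8), PLAUR (8.07), TFPI (1.97), FGL1 (1.66), PLAT (1.33), FGB (0.146), FGA (0.130), FGG (0.0675) and F5 (0.00340). The ranges of the 3 libraries overlapped between TFPI and FGL1 and between FGB and FGA, so these neighbours did not differ beyond their spread. In MIR21-KO the order was TFPI2 (147 FPKM), PLAU (112), PLAUR (13.3), TFPI (5.37), PLAT (4.31) and FGL1 (0.0536), with the other 4 genes at 0. The first 5 of these did not overlap with their neighbours. TFPI2 and PLAU had thus changed places: the ratio of TFPI2 to PLAU was 0.478 ± 0.0182 for Ctrl and 1.32 ± 0.104 for MIR21-KO (SD, n = 3). The ratio of PLAU to PLAT fell from 65.8 ± 5.00 to 26.0 ± 1.36, and that of PLAU to its receptor PLAUR was 10.9 ± 0.769 and 8.55 ± 1.11. These ratios are descriptions with no test.

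Fibrinogen chain transcripts were close to the limit of detection in Ctrl and had no read in MIR21-KO. The chains are encoded side by side on chromosome 4 (GRCh38), FGB (ENSG00000171564) at chr4:154562956-154571086 (+), FGA (ENSG00000171560) at chr4:154583126-154590766 (-) and FGG (ENSG00000171557) at chr4:154604134-154612967 (-). FGA, the alpha chain, had 9, 5 and 5 reads in the Ctrl libraries (0.179, 0.118 and 0.0924 FPKM) and 0 in each MIR21-KO library. FGB, the beta chain, had 4, 7 and 3 reads (0.116, 0.240 and 0.0810 FPKM) against 0. FGG, the gamma chain, had 2, 3 and 4 reads (0.0436, 0.0775 and 0.0812 FPKM) against 0. All 3 chains were thus read in every Ctrl library and in no MIR21-KO library.

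Summed over a group, FGA had 19 reads in Ctrl (exact Poisson 95% interval 11.4 to 29.7), FGB 14 (7.65 to 23.5) and FGG 9 (4.12 to 17.1), out of 36690696 Ctrl reads and 39378176 MIR21-KO reads. With the 3 reads that a count of 0 over the MIR21-KO group allows as the floor, FGA was at least 6.80-fold, FGB at least 5.01-fold and FGG at least 3.22-fold lower in MIR21-KO. The bounds take the counted Ctrl reads as they are and do not carry the counting error of Ctrl, which for FGG alone runs from 4.12 to 17.1 reads, so the bound of FGG is the least certain. The intervals cover counting error only, since reads are not independent molecules. In bulk RNA, fewer cells of a type and less RNA per cell cannot be told apart. Whether the chains are called depends on the test: with no filter on low values the FDRs of limma on log2(FPKM + 0.1) were 0.0305 for FGA, 0.0488 for FGB and 0.0605 for FGG, all over the threshold. Voom and limma on the recovered reads, also with no filter, gave 0.000209, 0.00119 and 0.00397, all under it.

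The sequence upstream of the chain genes is shown because the 3 genes moved together and because regulators of hepatocyte and acute-phase genes were followed below. The 250 bases before the first RefSeq start are given 5′ to 3′ on the gene's strand (GRCh38.p14), FGA at chr4:154590743-154590992 (-), FGB at chr4:154562730-154562979 (+) and FGG at chr4:154612657-154612906 (-). Capitals mark a pair of words searched on both strands: TTGCNNAA (a C/EBP word) and CTGGGA (the type II IL-6 response word).
FGA: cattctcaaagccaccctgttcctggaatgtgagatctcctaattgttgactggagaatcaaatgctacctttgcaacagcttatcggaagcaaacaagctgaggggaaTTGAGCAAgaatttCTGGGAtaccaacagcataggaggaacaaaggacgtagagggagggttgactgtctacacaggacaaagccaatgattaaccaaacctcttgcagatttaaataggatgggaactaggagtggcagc
FGB: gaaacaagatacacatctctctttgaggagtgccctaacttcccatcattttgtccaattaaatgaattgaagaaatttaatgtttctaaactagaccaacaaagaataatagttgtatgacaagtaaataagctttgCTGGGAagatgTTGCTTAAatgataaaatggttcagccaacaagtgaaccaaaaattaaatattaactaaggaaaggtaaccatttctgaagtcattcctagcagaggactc
FGG: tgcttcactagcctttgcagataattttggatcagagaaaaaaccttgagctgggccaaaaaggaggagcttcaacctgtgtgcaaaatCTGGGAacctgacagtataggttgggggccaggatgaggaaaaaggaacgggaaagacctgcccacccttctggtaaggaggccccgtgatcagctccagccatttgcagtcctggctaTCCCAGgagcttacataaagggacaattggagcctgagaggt
The C/EBP word stood at -141 in FGA and -101 in FGB, and the IL-6 response word at -127 in FGA, -112 in FGB and -161 and -42 in FGG. FGG did not hold the C/EBP word. Of 35116 RefSeq promoters of 300 bases (250 before the start and 50 after), 10.5% held the C/EBP word and 33.3% the IL-6 response word. A match is a description of the letters and not a bound site.

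FGL1, a liver-secreted relative of the fibrinogen chains and a ligand of the immune receptor LAG3, was the one gene of the 10 that was called lower. FGL1 (ENSG00000104760, chr8:17864380-17910365, minus strand) stood at 1.55, 1.52 and 1.93 FPKM in Ctrl and at 0.111, 0.0495 and 0 FPKM in MIR21-KO, which came from 65, 54 and 87 reads against 5, 2 and 0. The highest MIR21-KO value was far below the lowest Ctrl value. The log2 fold change was -3.58 ± 0.43 (SE, 95% confidence interval -4.61 to -2.55, FDR 0.00161 by limma). With each group's reads pooled and set against its total, Ctrl was 31.6 times MIR21-KO (exact 95% interval 15.1 to 79.5, counting error only). The FDR rose over the threshold without Ctrl replicate 1 (0.0157), replicate 2 (0.0140) or replicate 3 (0.0183) and with a pseudocount of 0.01 FPKM (0.0112), while the fold change stayed negative in all 15 alternatives that gave a value.

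Genes next to FGL1 on chromosome 8 were lower as well. Within 500 kb, 8 further genes were tested, of which limma called 6 lower and none higher (none also at an unadjusted p under 0.05 or by voom on recovered reads). Of the 6, SLC7A2, MTUS1, RP11.806O11.1 and RP11.156K13.2 passed the filter on low values only through Ctrl and had to differ, so the count is a description and is not set against the share of all genes. MTUS1, which encodes a microtubule-associated protein, lies 63.5 kb from FGL1 and fell from 12.6 ± 0.771 to 0.0320 ± 0.0226 FPKM (log2 fold change -6.60, FDR 1.2e-05). PDGFRL, 220 kb away, fell from 7.96 to 0.778 FPKM, and SLC7A2, a cationic amino acid transporter 294 kb away, from 1.52 to 0.0841 FPKM. The nearest tested gene on that side, RP11.806O11.1, had 61 reads in Ctrl and 0 in MIR21-KO. PCM1, 12.5 kb away on the other side, fell from 9.97 ± 0.743 to 6.27 ± 0.831 FPKM. RP11.156K13.2, an antisense gene inside FGL1 on the opposite strand, had 25 reads against 0, and because the strand setting of the counting is not given, its reads and those of FGL1 cannot be told apart.

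Farther out no gene was called. Beyond PCM1, ASAH1 (log2 fold change 0.0024, FDR 0.986) and NAT1 (-0.30, FDR 0.232) were not called, and both, like CNOT7 below, are named after their values were seen. In a window of 1000 kb, also chosen after the values were seen, 13 genes were tested and the count of lower genes was again 6. CNOT7, 618 kb away, came closest among the others (log2 fold change -0.48, FDR 0.0134) and was called without MIR21-KO replicate 3 (0.00316) and by voom on recovered reads (0.0045). The calls of MTUS1 and PDGFRL held in all 16 alternatives. Those of SLC7A2 (FDR 0.0155, 0.0103 and 0.0137) and RP11.806O11.1 (0.0254, 0.0135 and 0.0211) were lost without Ctrl replicates 1, 2 and 3 in turn. That of RP11.156K13.2 was lost without Ctrl replicate 1 (0.0230) or 3 (0.0269) and with a pseudocount of 0.01 FPKM (0.0144), and that of PCM1 without any of the Ctrl libraries (0.0316, 0.0217 and 0.0288), MIR21-KO replicate 1 (0.0123) or 2 (0.0341), as well as with no filter (0.0147) and without trend and robust fitting (0.0141).

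**Figure D2:**
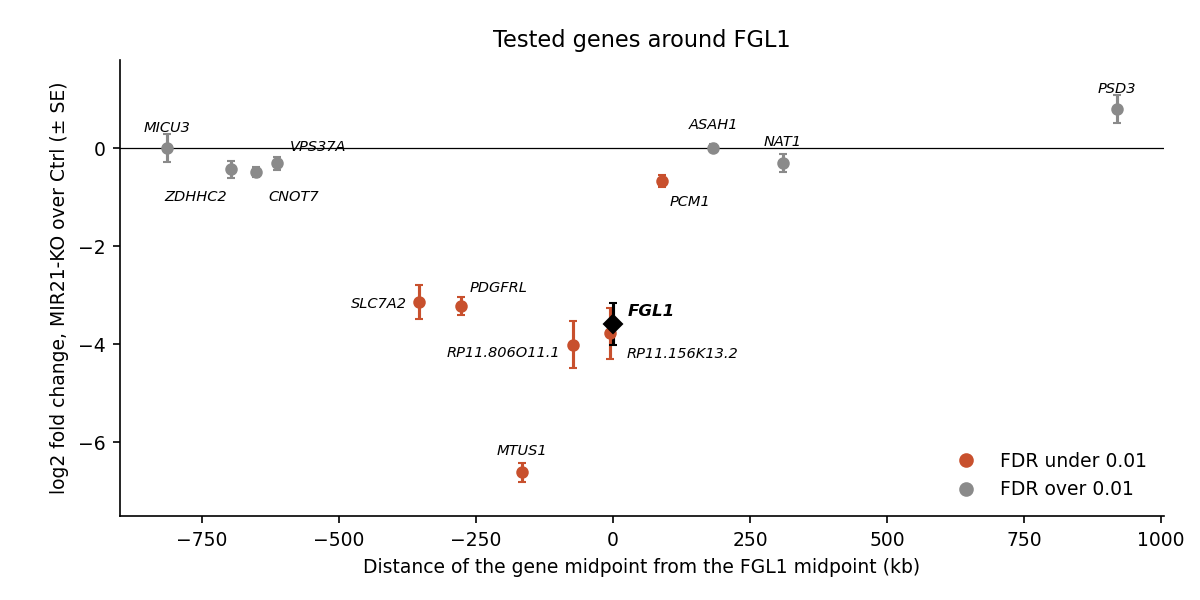
Log2 fold change (MIR21-KO over Ctrl, ± SE) of the tested genes within 1000 kb of FGL1, against the distance of each gene's midpoint from that of FGL1 in kb. FGL1 is the diamond at -3.58, and the genes called at an FDR under 0.01 in colour run from SLC7A2 to PCM1 with MTUS1 lowest at -6.60, while the other genes, in grey, are not called.

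F5, the cofactor of factor Xa that speeds the formation of thrombin, was not detectable at this depth. F5 (ENSG00000198734, chr1:169514166-169586588, minus strand) had 1 read in Ctrl replicate 3 (0.0102 FPKM) and 0 reads in the other 5 libraries. Both groups were at or under the floor of 3 reads and no fold change is given.

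The inhibitors TFPI and TFPI2 rose with little spread between the libraries of a group. TFPI (ENSG00000003436, chr2:187464230-187565760, minus strand) stood at 1.90, 2.04 and 1.98 FPKM in Ctrl and at 5.05, 5.43 and 5.63 FPKM in MIR21-KO, from 257 to 856 reads per library. The means were 1.97 ± 0.0713 and 5.37 ± 0.296 FPKM (SD, n = 3), a 2.72-fold rise with a log2 fold change of 1.40 ± 0.10 (SE, 95% confidence interval 1.16 to 1.64, FDR 0.000243). TFPI2 (ENSG00000105825, chr7:93885396-93890991, minus strand) stood at 40.9, 42.0 and 42.4 FPKM in Ctrl and at 146, 142 and 152 FPKM in MIR21-KO, from 1202 to 5308 reads per library. Its means were 41.8 ± 0.767 and 147 ± 4.93 FPKM, a 3.51-fold rise with a log2 fold change of 1.81 ± 0.069 (95% confidence interval 1.65 to 1.97, FDR 3.2e-05). TFPI2 was 21.2 ± 0.546 times TFPI in Ctrl and 27.4 ± 1.43 times TFPI in MIR21-KO. Both genes were called in all 16 alternatives, with log2 fold changes of 1.10 to 1.44 for TFPI and 1.77 to 1.83 for TFPI2. Overlapping genes on the opposite strand were far lower, GNGT1 with 5 to 21 reads per library at TFPI2 and AC007319.1 with 0 to 6 at TFPI.

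Of the plasminogen activators, PLAT was called higher and the more abundant PLAU was not. PLAT (ENSG00000104368, chr8:42175233-42207724, minus strand) stood at 1.27, 1.46 and 1.27 FPKM in Ctrl and at 4.68, 4.20 and 4.07 FPKM in MIR21-KO, from 104 to 422 reads per library. Each MIR21-KO value was well above the highest Ctrl value. The means of 1.33 ± 0.110 and 4.31 ± 0.324 FPKM gave a 3.23-fold rise and a log2 fold change of 1.62 ± 0.12 (SE, 95% confidence interval 1.33 to 1.92, FDR 0.000295), called in all 16 alternatives. PLAU (ENSG00000122861, chr10:73909177-73917497, plus strand) stood at 88.8, 88.0 and 85.4 FPKM in Ctrl and at 115, 114 and 106 FPKM in MIR21-KO. Its groups did not overlap, but the step was small: 87.4 ± 1.82 against 112 ± 5.10 FPKM, 1.28-fold, with a log2 fold change of 0.35 ± 0.074 (95% confidence interval 0.18 to 0.53, FDR 0.0119). The FDR was under the threshold without MIR21-KO replicate 3 (0.00337), the lowest of its group, with scaling by total reads (0.00789) and with voom on recovered reads (0.00575, or 0.00432 with no filter). The confidence intervals of PLAT and PLAU lay apart, and the difference between the 2 fold changes was not tested. C10orf55, on the strand opposite PLAU, had 204 to 248 reads per library and a log2 fold change of 0.14 (FDR 0.349).

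The receptor PLAUR rose with a wider spread. PLAUR (ENSG00000011422, chr19:43646095-43670547, minus strand) stood at 8.23, 7.55 and 8.43 FPKM in Ctrl and at 15.7, 12.99 and 11.1 FPKM in MIR21-KO. MIR21-KO replicate 3 was closest to the Ctrl values and replicate 1 farthest from them. The means were 8.07 ± 0.461 and 13.3 ± 2.28 FPKM, a 1.64-fold rise with a log2 fold change of 0.70 ± 0.13 (SE, 95% confidence interval 0.38 to 1.01, FDR 0.00874). This call was close to the threshold and held in 8 of 16 alternatives. It was lost without Ctrl replicate 1 (FDR 0.0326), 2 (0.0372) or 3 (0.0301) and without MIR21-KO replicate 1 (0.01005) or 2 (0.0377), as well as with no filter (0.0189) and without trend and robust fitting (0.0186).

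**Figure D3:**
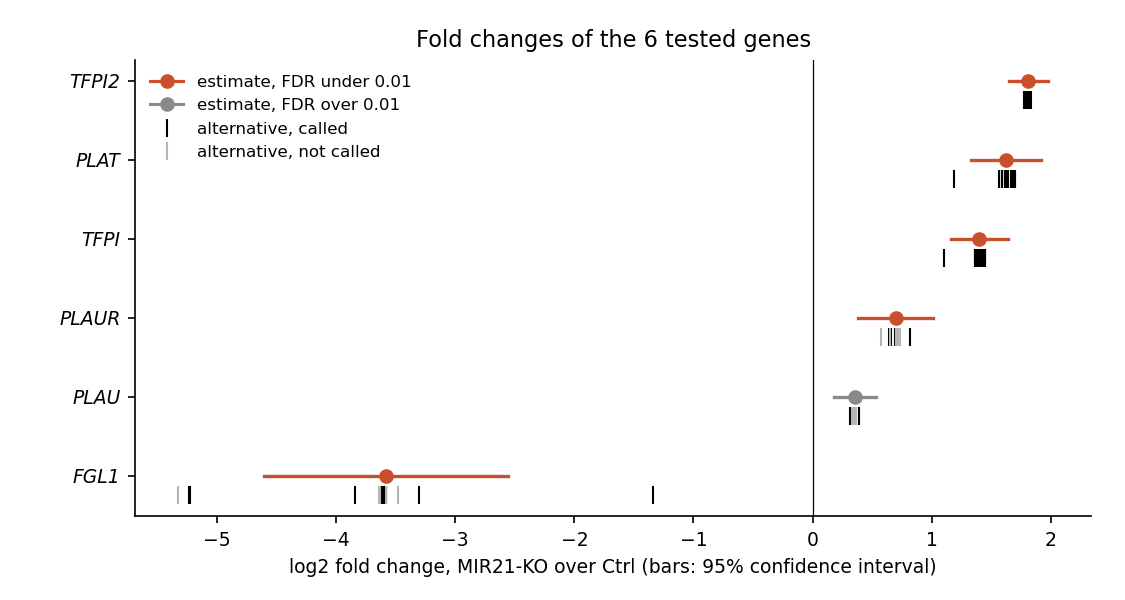
Log2 fold change (MIR21-KO over Ctrl) of the 6 tested genes with its 95% confidence interval, in colour where the FDR was under 0.01, and below each the estimates of the alternative fits as ticks, black where called and grey where not. TFPI2, PLAT and TFPI lie between 1.40 and 1.81 with all ticks called, PLAUR at 0.70 and PLAU at 0.35 have ticks of both kinds, and FGL1 lies at -3.58 with the widest interval.

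Coagulation genes around TFPI and TFPI2 moved in both directions. Of a list of 35 coagulation genes, which holds 6 of the 10 genes, 15 were tested, 4 were called higher and 1 lower. Over all genes tested, 7.66% were called higher and 8.38% lower. The median log2 fold change of the 15 was 0.32, beside -0.017 over all genes tested. THBD, thrombomodulin, which binds thrombin and turns it to the activation of protein C, stood at 7.99, 7.97 and 8.36 FPKM in Ctrl and at 18.7, 21.9 and 20.9 FPKM in MIR21-KO (a log2 fold change of 1.33 ± 0.083, FDR 0.000145). PROCR, the endothelial protein C receptor, which presents protein C to that complex, moved the other way, from 45.5, 47.7 and 48.4 to 26.2, 23.8 and 19.5 FPKM (log2 fold change -1.03 ± 0.12, FDR 0.00124). F8, factor VIII, rose from 1.13 ± 0.169 to 2.47 ± 0.1003 FPKM (FDR 0.00318), a call lost without Ctrl replicate 1, 2 or 3 (0.0108, 0.0135 and 0.0136) and without MIR21-KO replicate 2 (0.0188). THBD and PROCR were called in all 16 alternatives. The most abundant genes of the list that were not called were the protease-activated receptor F2RL1 (59.7 and 65.4 FPKM) and the cargo receptor partners MCFD2 (36.4 and 45.5 FPKM) and LMAN1 (20.1 and 14.9 FPKM), which carry factors V and VIII out of the endoplasmic reticulum. LMAN1 was called without MIR21-KO replicate 3 (FDR 0.00480). Among the 20 untested genes, F7 (0, 5 and 5 reads against 0) and F13B (5, 14 and 2 reads against 0) had reads in Ctrl only. F7, unlike the fibrinogen chains, was not read in every Ctrl library. KLKB1 went the other way, with 8 reads in Ctrl and 38 in MIR21-KO. F7, F13B and KLKB1 are named after their values were seen.

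The fibrinolysis genes that passed the test were higher in MIR21-KO. Of 26 genes, 3 of them among the 10, 16 were tested, and limma called 8 higher and none lower. The shares over all genes tested were 7.66% higher and 8.38% lower. At an unadjusted p under 0.05, 1 gene was lower, as it was by voom on recovered reads, and that gene was ENO1. The median log2 fold change was 0.73, beside -0.017 over all genes tested. MST1, named in addition to the rule, passed the filter on low values only through MIR21-KO. It was not called, but the count of tested genes and the median include it. SERPINE2, protease nexin-1, an inhibitor of thrombin, uPA and tPA, rose from 13.5 ± 0.412 to 23.1 ± 0.476 FPKM (FDR 0.00043). VTN, vitronectin, an extracellular matrix ligand of uPAR, rose from 4.35 ± 0.754 to 13.4 ± 3.01 FPKM (FDR 0.00192). The call of VTN was lost without Ctrl replicate 1 (0.0102) and without MIR21-KO replicate 2 (0.0133).

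The uptake receptors MRC2 and LRP1 and the galectin LGALS1 were also among the genes called higher. MRC2, the collagen receptor Endo180, which associates with uPAR, rose from 15.8 ± 0.728 to 35.4 ± 2.03 FPKM (FDR 0.000179). LRP1, which clears complexes of protease and inhibitor, rose from 3.59 ± 0.282 to 6.78 ± 1.13 FPKM (FDR 0.00466), and LGALS1, galectin-1, from 434 ± 39.3 to 941 ± 230.3 FPKM (FDR 0.00652). The calls of LRP1 (FDR 0.0174, 0.0219 and 0.0219, and 0.0262) and LGALS1 (0.0318, 0.0221 and 0.0294, and 0.0332) were lost without Ctrl replicates 1, 2 and 3 and MIR21-KO replicate 2, each left out in turn. Both calls were also lost with no filter (0.0105 and 0.0128), and that of LGALS1 without trend and robust fitting (0.0131). Plasminogen itself (PLG) had 2 reads in Ctrl and 5 in MIR21-KO. The plasminogen-binding proteins ENO1 (635 and 465 FPKM, log2 fold change -0.46, FDR 0.0188), ANXA2 (363 and 504 FPKM, 0.47, FDR 0.0157) and S100A10 (288 and 441 FPKM, 0.59, FDR 0.0298) were the most abundant genes of the list that were not called. ENO1 was called without MIR21-KO replicate 1 (FDR 0.00663), ANXA2 (0.00235) and S100A10 (0.00253) without MIR21-KO replicate 3, and all 3 by voom on recovered reads (0.00425, 0.00368 and 0.00762).

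The acute-phase and hepatocyte secretory genes to which the fibrinogen chains and FGL1 belong were mostly near 0. Of 32 genes, 8 were tested, FGL1 and APOH were called lower and LBP higher, with a median log2 fold change of -0.47. FGL1 passed the filter on low values only through Ctrl and LBP only through MIR21-KO. This count is therefore a description and is not set against the share of all genes. APOH, beta-2-glycoprotein I, a plasma protein that binds anionic phospholipids, stood at 6.25, 5.72 and 6.15 FPKM in Ctrl and at 1.05, 0.613 and 0.521 FPKM in MIR21-KO (a log2 fold change of -2.94 ± 0.24, FDR 0.000363). LBP, which binds lipopolysaccharide, rose from 0.353 ± 0.0606 to 1.98 ± 0.503 FPKM (FDR 0.00139). C3 (52.5 and 55.3 FPKM), AMBP (2.79 and 2.55 FPKM) and SAA1 (2.23 and 2.03 FPKM) were not called. Hepatocyte markers were at or near 0 in both groups, with 1 read of ALB in Ctrl and 3 in MIR21-KO and none of APOA2, except CPS1, which fell from 2.12 to 0.240 FPKM. CPS1 passed the filter on low values only through its Ctrl level. That marker moved with the fibrinogen chains, FGL1 and APOH, and its part in their fall was not tested.

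A list of 33 regulators, which includes factors known to act on the fibrinogen promoters and on PLAU and PLAUR, held 29 tested genes. The test called 4 higher and 5 lower, with a median log2 fold change of 0.051. Because some of these genes passed the filter on low values only through Ctrl, this count is a description. It is not set against the share of all genes. HNF4A, a nuclear receptor of hepatocyte and gut epithelium, fell from 4.21 ± 0.437 to 0.449 ± 0.0670 FPKM (FDR 0.000107), FOXA3 from 2.33 ± 0.365 to 0.375 ± 0.115 FPKM (FDR 0.00112) and FOXA2 from 16.3 ± 0.687 to 9.06 ± 0.619 FPKM (FDR 0.000691). These 3 genes were called lower in all 16 alternatives. HNF4A and FOXA3 passed the filter on low values only through their Ctrl level, and a link to the fibrinogen reads was not tested. FOXA1 went the other way, from 0.606 to 2.38 FPKM, and is named in addition to the rule. Its call was lost without Ctrl replicate 1, 2 or 3 (FDR 0.0150, 0.0123 and 0.0158) and without MIR21-KO replicate 2 (0.0169).

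IL6, the cytokine that induces the fibrinogen genes in liver, stood at 1.139, 1.62 and 1.24 FPKM in Ctrl and at 5.85, 6.91 and 6.45 FPKM in MIR21-KO (a log2 fold change of 2.19 ± 0.16, FDR 0.000237). Its direction was thus opposite to that of FGA, FGB and FGG. Of the factors that carry acute-phase signals, CEBPB (69.9 ± 4.73 and 103 ± 20.4 FPKM, FDR 0.0381) and CEBPD (log2 fold change 0.29, FDR 0.291) were not called. STAT3, named in addition to the rule, was called in none of the 16 alternatives (log2 fold change 0.076 to 0.21). ETS2, another regulator of the list, was not called either (0.36, FDR 0.0169). CEBPB was called without MIR21-KO replicate 3 (FDR 0.00201) and by voom with no filter (0.00713). ETS2 was called without MIR21-KO replicate 1 (0.00926) and by voom on recovered reads (0.00976). TSC22D3, a glucocorticoid-induced gene, rose from 3.81 ± 0.263 to 6.26 ± 0.483 FPKM (FDR 0.00333), a call lost without Ctrl replicate 1, 2 or 3 (0.0133, 0.0172 and 0.0188) and without MIR21-KO replicate 2 (0.0225).

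Of the AP-1 subunits of the list, FOSL1 was called lower and JUNB higher. The word searched for AP-1 was TGANTCA, in which N stands for any base. A match to this broad word is a description of the letters and not a bound site. FOSL1 (FRA-1) stood at 35.8, 33.8 and 31.4 FPKM in Ctrl and at 15.1, 16.0 and 13.2 FPKM in MIR21-KO (a log2 fold change of -1.18 ± 0.096, FDR 0.000373). JUNB rose from 35.3 ± 3.50 to 76.5 ± 6.46 FPKM (FDR 0.000656), and both genes were called in all 16 alternatives. JUN and FOS, named in addition to the rule, were not called. Over the alternatives their log2 fold changes were 0.28 to 0.34 for JUN and 0.38 to 1.13 for FOS. JUN was called without MIR21-KO replicate 3 (FDR 0.00735). The word stood in the promoters of TFPI2 (as TGAATCA) and PLAUR (as TGAGTCA), which both rose, and in 7.71% of the 35116 promoters. The 30 bases around it are shown on the gene's strand, with the word in capitals, for TFPI2 at chr7:93890822-93890851 (-) and for PLAUR at chr19:43670337-43670366 (-).
TFPI2: gtccccgtgcaTGAATCAgccacccctcag
PLAUR: tcacaactccaTGAGTCAgggccgagccag
The word began at -87 in TFPI2 and -186 in PLAUR. It was not found in the RefSeq promoters of TFPI and PLAU, which were matched together with those of FGA, FGB, FGG and F5, 8 of the 10 genes in all. PLAUR also held the C/EBP word at -62 and the IL-6 response word at -237 and -49, F5 held the IL-6 response word at -138 and 7, and PLAU held the C/EBP word at -122 of its second RefSeq start.

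**Figure D4:**
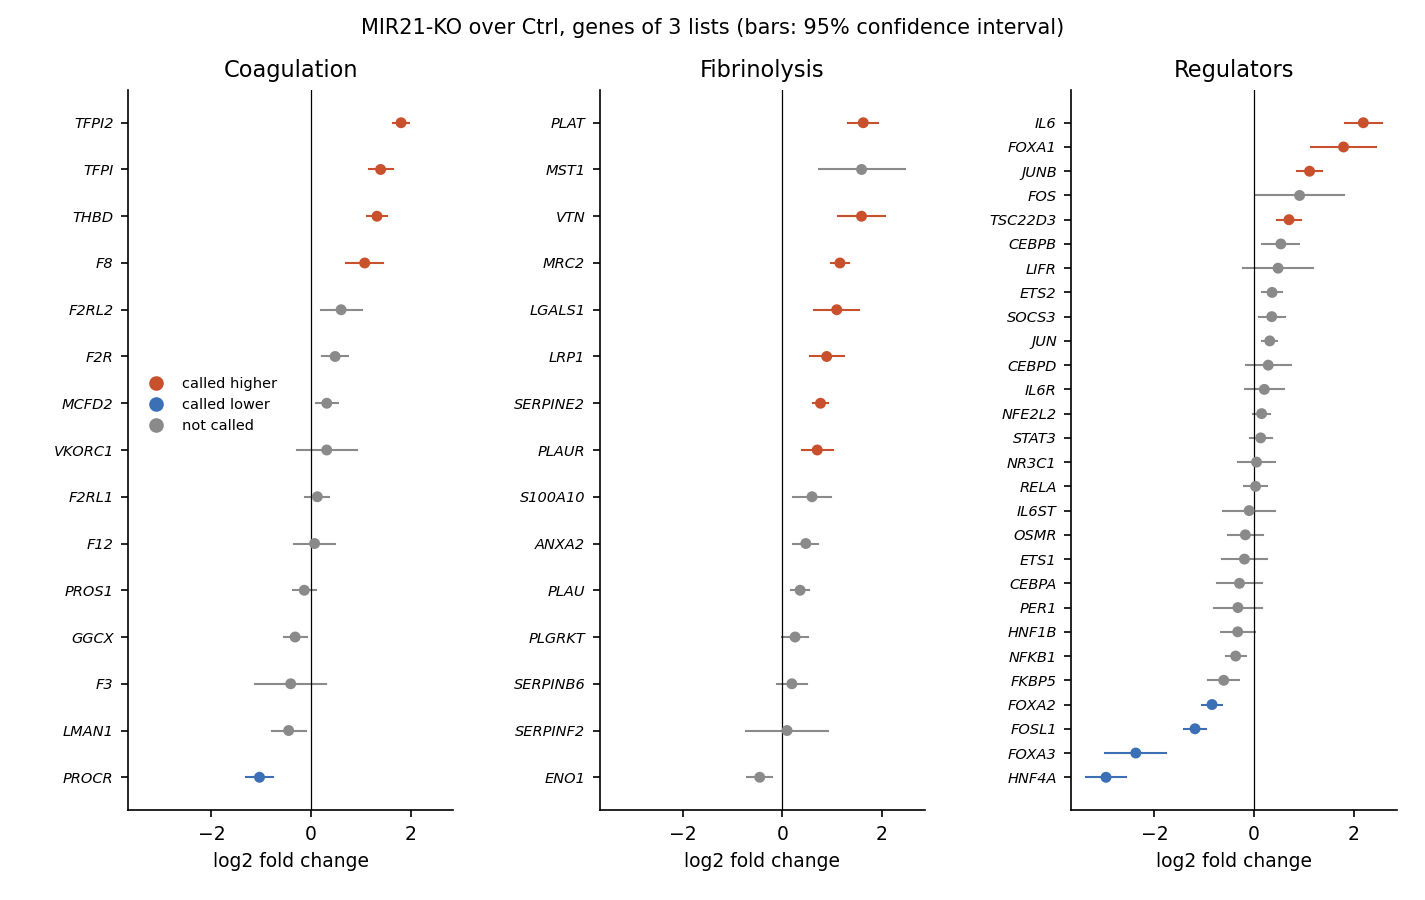
Log2 fold change (MIR21-KO over Ctrl) with its 95% confidence interval for tested genes of the coagulation, fibrinolysis and regulator lists, with 1 gene of each of the last 2 lists not shown, in colour where called at an FDR under 0.01. Coagulation runs from PROCR at -1.03 to TFPI2 at 1.81, fibrinolysis has no gene called lower, and the regulators run from HNF4A at -2.97 to IL6 at 2.19.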

How the data were processed

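The authors deposited 1 table of FPKM values with gene lengths for 3 Ctrl and 3 MIR21-KO libraries, normalized with library sizes of their own. Per the submitters' processing notes, cutadapt 1.14, HISAT2 2.1.0, SAMtools 1.5, featureCounts 1.5.3 and edgeR 3.18.1 were used on hg38. The annotation and strand setting are not given in the sources used here. The table's own fold changes, p-values and FDRs were not used.

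FPKM times length gave whole reads for 100% of values (tolerance 0.01 read). Log2(FPKM + 0.1) was tested in R 4.3.3 with limma 3.58.1 (trend, robust, two-sided, Benjamini-Hochberg), and the procedure was tested on simulated data. Genes were placed by GENCODE 29, which matched 57836 of 58174, and neighbours were taken within 500 kb. The members and lists were chosen with earlier results of these data known. In each list, called genes with at least 1 FPKM in a group (at most 8) and the 3 most abundant genes that were not called were named, as were the nearest tested and called neighbours; 2 genes that the counts include are not reported here. Other filters, pseudocounts, scalings, voom, a replicate block and left-out libraries were alternatives; voom without a filter was added after seeing the data. Figures used matplotlib 3.10.9.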

Additional observations from a re-analysis of the deposited data

How the results depend on the processing

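Over all genes, 2568 calls became 651 (379 higher, 272 lower, 649 of them shared) with the replicate block and 5114 at an FDR under 0.05. With 1 library left out they became 918, 933 and 889 for Ctrl replicates 1 to 3. Without MIR21-KO replicates 1, 2 and 3 they became 2189, 784 and 3418. The MIR21-KO libraries differed more from each other than the Ctrl libraries did. Chi-square per degree of freedom of their reads was 32.8 between replicates 1 and 3, 7.70 between 1 and 2 and 11.9 between 2 and 3. In Ctrl the same pairs gave 3.51, 5.30 and 2.69. The 5 calls among the 10 genes became 3 with the block, 3 to 6 with 1 library left out (3 without any of the Ctrl libraries) and 9 of 10 with voom on recovered reads without a filter. The 5 coagulation calls became 10 with voom without a filter and 9 at an FDR under 0.05. The 8 fibrinolysis calls became 5 with no filter, 13 with voom with or without a filter, 4 with the block, 4 to 11 with 1 library left out (4, 5 and 5 for the Ctrl libraries, 4 for MIR21-KO replicate 2) and 13 at an FDR under 0.05. The 3 acute-phase calls became 8 with voom without a filter, and the 9 regulator calls became 15 at an FDR under 0.05. No fold change of the 10 genes reversed. Over all genes, calls were more often lower than higher (47.7% higher), and this balance turned with the block (58.2% higher), without Ctrl replicates 1, 2 and 3 (56.9%, 56.7% and 57.5%), without trend and robust fitting (53.9%) and with voom without a filter (50.96%), whereas it stayed at 46.9% with median-ratio scaling and 43.3% with total reads. Same-numbered libraries did not deviate together (correlations -0.171, -0.0177 and -0.0174). Because the MIR21-KO libraries differed widely from each other, a small shared shift could be missed, so a pairing by number is not settled. Under the block the calls of FGL1 (FDR 0.0130), PLAUR (0.0270), F8, LRP1, LGALS1, FOXA1, TSC22D3, SLC7A2, RP11.806O11.1, RP11.156K13.2, PCM1, ATP1B1, KIFAP3, VDAC3 and ZSWIM8 were lost (0.0112 to 0.0338). Leaving out a library and the block leave fewer residual degrees of freedom by construction, and other causes of these shifts were not tested.

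FGL1 had no value with a minimum mean of 1 FPKM. The ratios between fibrinogen chains, and their alternatives, were not tested, since a chain had 3 reads or fewer in some library. For FGA, FGB, FGG, F5 and FGL1 in MIR21-KO, read number limits precision, since a single read per kb amounts to 0.0731 to 0.0930 FPKM.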

Other observations

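At TFPI2, GNG11, a G protein gamma subunit 30.7 kb away, rose from 27.7 ± 2.23 to 63.8 ± 10.7 FPKM (log2 fold change 1.19, FDR 0.00122 by limma), and BET1, 71.8 kb away on the same side, was not called (0.34, FDR 0.0234), while no gene was tested on the other side. At PLAT, the neighbours AP3M2 (-0.22, FDR 0.172) and IKBKB (0.14, FDR 0.271) were not called, whereas ANK1, ankyrin-1, 278 kb away, fell from 2.95 ± 0.140 to 0.904 ± 0.0632 FPKM (FDR 0.000417) and VDAC3, a mitochondrial channel, from 62.7 to 42.9 FPKM (FDR 0.00272). At PLAUR, 24 genes within 500 kb were tested and limma called none (the nearest tested on each side were CADM4, log2 fold change -0.86, FDR 0.0247, and SMG9, 0.14, FDR 0.419), although 8 had an unadjusted p under 0.05 and voom on recovered reads called 3. CADM4 was called without MIR21-KO replicate 3 (FDR 0.00463). Within 500 kb of TFPI none passed the filter. At PLAU, ZSWIM8 alone of 24 was called (log2 fold change 0.53, FDR 0.00445), and the nearest non-overlapping genes on each side, CAMK2G (-0.050, FDR 0.667) and VCL (0.46, FDR 0.0400), were not, although VCL was without MIR21-KO replicate 1 (FDR 0.00574) and by voom with no filter (0.00704). At F5, ATP1B1, the beta subunit of the sodium pump, fell from 87.2 ± 4.22 to 61.6 ± 3.46 FPKM (FDR 0.00447) and KIFAP3 rose from 4.49 ± 0.313 to 7.17 ± 0.377 FPKM (FDR 0.00292). The nearest tested genes on each side of F5, SLC19A2 (-0.60, FDR 0.0174) and C1orf112 (-0.17, FDR 0.389), were not called, SLC19A2 except without MIR21-KO replicate 3 (FDR 0.00353) and by voom on recovered reads (0.00916). PLRG1, the only tested gene within 500 kb of the fibrinogen chains, stood at 12.8 ± 0.759 and 9.62 ± 0.481 FPKM (log2 fold change -0.41, FDR 0.0103, not called). PLRG1 was called without MIR21-KO replicate 3 (FDR 0.00791) and with a minimum mean of 1 FPKM (0.00930). It was also called with median-ratio scaling (0.00954) and by voom on recovered reads (0.00731). The calls of VDAC3, ZSWIM8, ATP1B1 and KIFAP3 were lost without each of the Ctrl libraries in turn (FDR 0.0166 to 0.0180, 0.0186 to 0.0255, 0.0168 to 0.0288 and 0.0127 to 0.0164) and without MIR21-KO replicate 2 (0.0208, 0.0291, 0.0295 and 0.0159), and that of ATP1B1 also without trend and robust fitting (0.0118).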
